A study of Mus musculus with 8 samples.

Results

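The 9 genes described here set the resting potential and excitability of the muscle cell membrane: the ATP-sensitive potassium (KATP) channel genes Kcnj11, Kcnj8, Abcc8 and Abcc9, the inward rectifier genes Kcnj2 and Kcnj12, the calcium-activated potassium channel gene Kcnn3, the chloride channel gene Clcn1 and the sodium channel gene Scn4a. They were chosen by function, with earlier results of these data known, and each was read through the probe set annotated to that gene alone. Of the 9 genes, 8 had such a probe set, 1 each, among 22180 genes of the series, and Scn4a was not analysed here. A gene whose mean over the 8 arrays lay below 3 on the log2 scale was called dim, and 6 of the 8 measured genes were dim. Of all 22180 genes 49.2% were dim.

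The cells were C2C12, mouse myoblasts that can be grown and made to fuse into multinucleate myotubes, so each value describes 1 cell line and not muscle tissue. All groups had been transduced with a retrovirus and then differentiated, and were kept for 12 h in glucose before total RNA was taken for Affymetrix Mouse Gene ST arrays. The 4 groups were Baf60c knockdown (siBaf60c virus) at 10 mM glucose, the same knockdown at 1 mM glucose, the scrambled control (siScramble virus) at 10 mM glucose and the control at 1 mM glucose. Each group held 2 arrays, described by the submitters as independent biological replicates. Baf60c is the product of Smarcd3, which belongs to the BAF chromatin remodelling complex and acts in muscle gene regulation.

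A KATP channel is built from pore subunits, encoded by Kcnj11 (Kir6.2) or Kcnj8 (Kir6.1), and regulatory sulfonylurea receptors, encoded by Abcc8 (SUR1) or Abcc9 (SUR2). ATP closes the channel and ADP opens it, so that it ties membrane potential to the energy state of the cell, as in glucose-stimulated insulin release. In adult skeletal muscle the sarcolemmal channel is known mainly as Kir6.2 with SUR2A. Kir2 channels and the chloride channel ClC-1 hold the resting potential of muscle fibres, the sodium channel Nav1.4 carries the action potential, and SK3, the product of Kcnn3, is known from immature and denervated muscle.

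The arrays were checked first. Replicates correlated at r = 0.987 to 0.990 across the 13308 genes tested and arrays of different groups at 0.939 to 0.984. The probe set shared by Smarcd3 and Chpf2 read 3.90 and 4.49 in knockdown cells at 10 mM glucose against 6.27 and 6.09 in control cells, and 3.01 and 2.77 in knockdown cells at 1 mM against 5.62 and 5.40 in control cells. All 12 markers of myotubes had a mean of 3 or more, from 3.93 for Myh8 to 11.18 for Acta1. Of the neuron and glia markers 7 of 8 were dim, and of the pancreatic beta cell markers 6 of 7.

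No signal above the dim bound was seen for any KATP subunit in any group. The 32 values of the 4 subunit genes lay between 1.44 and 2.93. Kcnj11 read 2.06 and 1.84 in knockdown cells at 10 mM glucose, 1.52 and 2.08 in knockdown cells at 1 mM, 1.71 and 1.94 in control cells at 10 mM and 1.65 and 1.97 in control cells at 1 mM. All 4 groups of Kcnj11 overlapped, and the widest gap between replicates, 0.56 in knockdown cells at 1 mM, equalled its whole range over the 8 arrays. Kcnj8 read 1.83 and 2.27 in knockdown cells at 10 mM glucose, 1.71 and 1.44 in knockdown cells at 1 mM, 2.07 and 1.69 in control cells at 10 mM and 1.91 and 1.59 in control cells at 1 mM. Only in knockdown cells did the glucose levels of Kcnj8 not overlap, by a margin smaller than the gap between replicates.

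Neither sulfonylurea receptor gene rose above the bound on any array. Abcc8 read 2.43 and 2.33 in knockdown cells at 10 mM glucose, 2.81 and 2.55 in knockdown cells at 1 mM, 2.53 and 2.56 in control cells at 10 mM and 2.51 and 2.36 in control cells at 1 mM. Its 2 values in knockdown cells at 10 mM lay below those of knockdown cells at 1 mM and of control cells at 10 mM, within a range of 0.48 over all arrays. Abcc9 read 2.29 and 2.85 in knockdown cells at 10 mM glucose, 2.65 and 2.67 in knockdown cells at 1 mM, 2.79 and 2.60 in control cells at 10 mM and 2.57 and 2.93 in control cells at 1 mM. The replicates in knockdown cells at 10 mM spanned most of the range of Abcc9. In the reference gene table Kcnj11 and Abcc8 are neighbouring protein-coding genes on chromosome 7, as are Kcnj8 and Abcc9 on chromosome 6. Their probe sets are separate, and each of the 4 genes was read by 1 probe set.

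**Figure D1:**
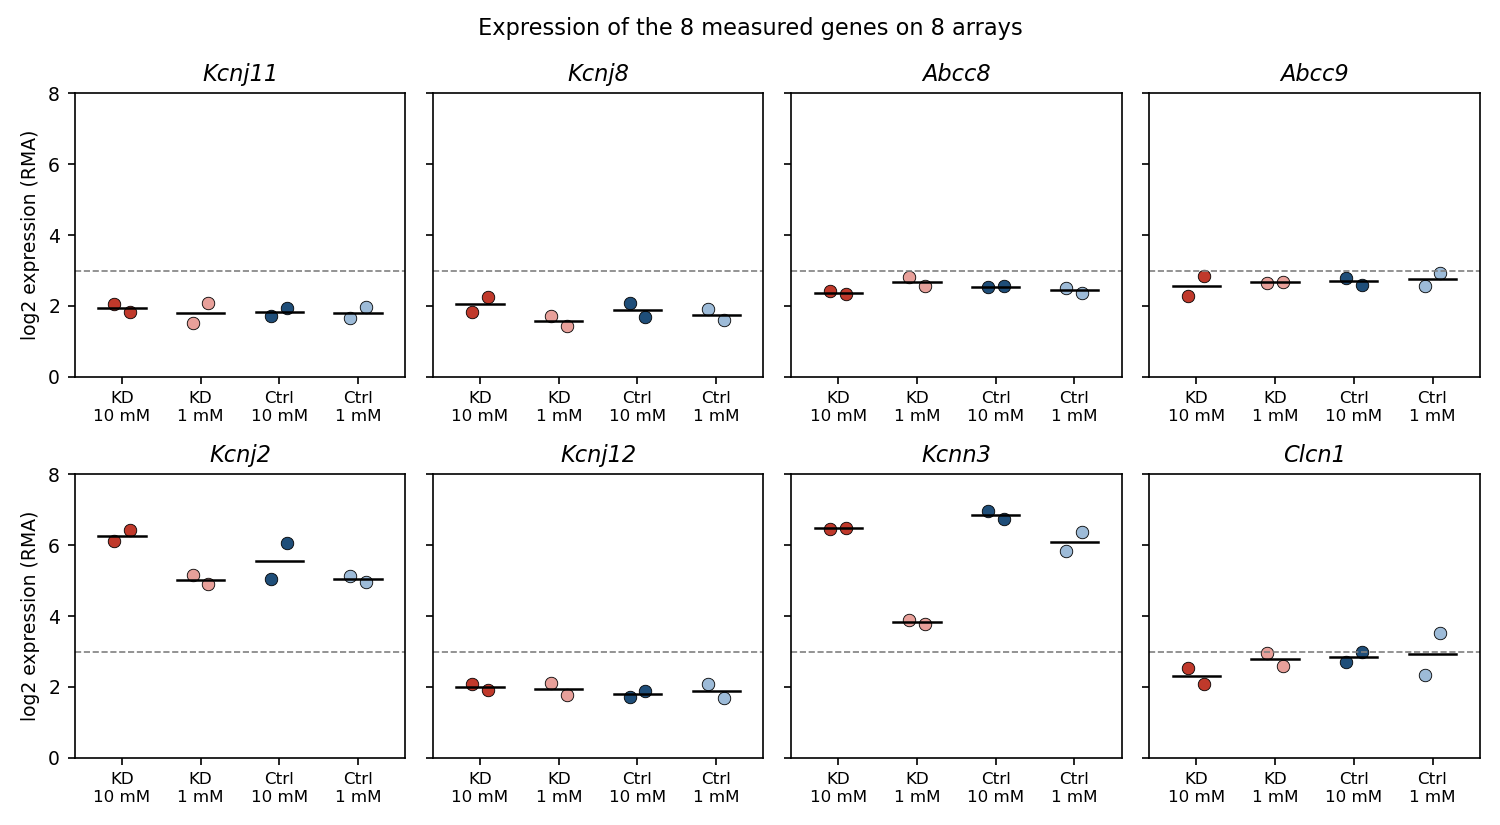
Log2 expression of the 8 measured genes on each array (points, n = 2 per group; bars, group means), for knockdown (KD) and control (Ctrl) cells at 10 mM and 1 mM glucose; the dashed line marks the dim bound of 3. Kcnj2 and Kcnn3 lie above the line on all arrays, and of the 48 values of the other 6 genes 1, for Clcn1, lies above it.

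Differences between groups were tested with limma on all 8 arrays and adjusted by the Benjamini-Hochberg method, with an adjusted p under 0.05 counted as a call. A filter kept the 13308 genes with a mean of at least 2.30 (log2). It kept 5 of the 8 measured genes, with Abcc8 (mean 2.51) the nearest inside and Kcnj12 (mean 1.91) the nearest outside it, and left out Kcnj11, Kcnj8 and Kcnj12, which were then fitted with no filter. The 4 comparisons were knockdown against control cells at 10 mM and at 1 mM glucose, and 10 mM against 1 mM glucose in knockdown and in control cells. The average knockdown effect, the average glucose effect and the interaction (the glucose effect after knockdown minus the one in the control) were added. Among all genes limma called 1.12% for knockdown at 10 mM, 1.49% for knockdown at 1 mM and 4.31% for the average knockdown effect. It called 25.1% for glucose in knockdown cells, 25.3% in control cells, 39.1% for the average glucose effect and 0% for the interaction, where 1049 genes had an unadjusted p under 0.05. Knockdown comparisons share arrays with glucose comparisons, so their values stand side by side and are not independent.

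None of the 4 KATP subunit genes was called in any of the 7 contrasts. With no filter their smallest adjusted p was 0.235 and none had an unadjusted p under 0.05. The 16 log2 changes over the 4 comparisons lay between -0.30 and 0.47, and their 95% confidence intervals between -0.69 and 0.98. In the filtered fit, which held Abcc8 and Abcc9 only, the change nearest to the test was that of Abcc8 with glucose in knockdown cells. It was -0.30 ± 0.14 (SE, n = 2 per group, limma adjusted p = 0.164). With no filter that change had an SE of 0.15 and a limma adjusted p of 0.270. Kcnj8 changed by 0.47 ± 0.22 in the same comparison with no filter (limma adjusted p = 0.244), and the value of 0.235 was its average glucose effect. These intervals describe the array signal. A p that misses the threshold does not show that a transcript did not change.

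**Figure D2:**
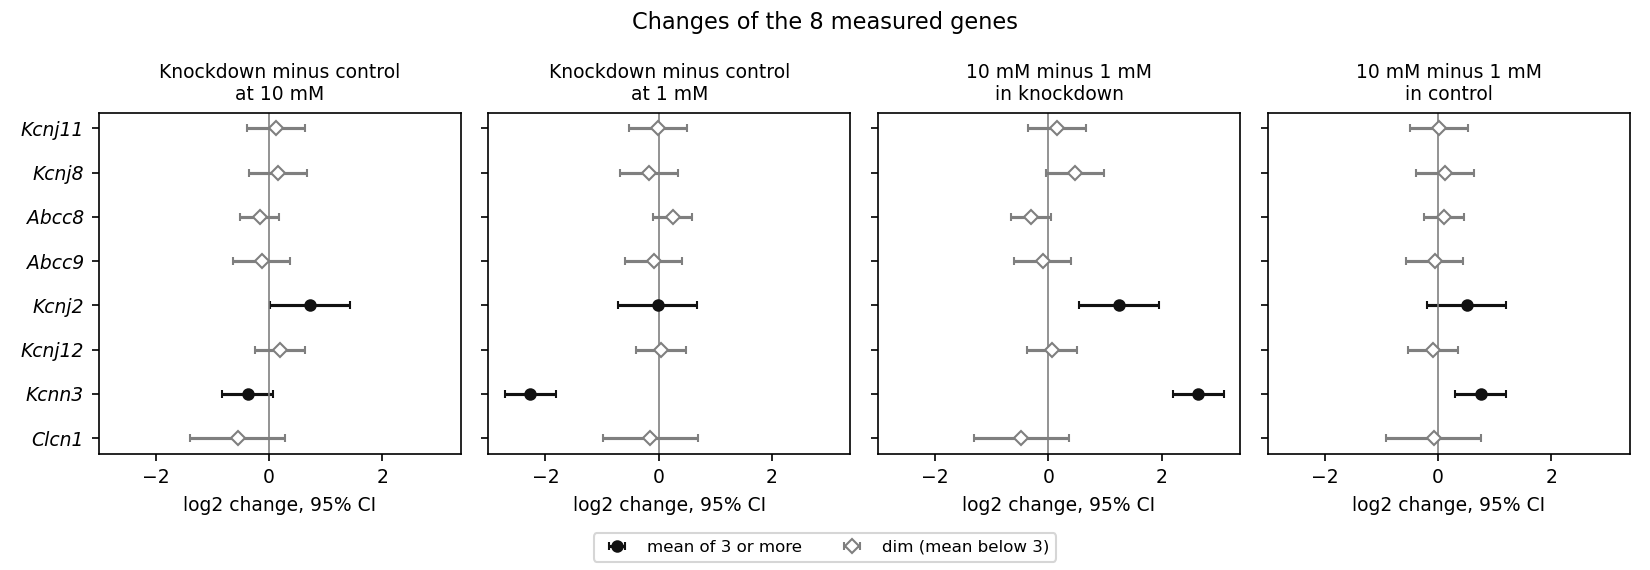
Log2 changes of the 8 measured genes with 95% confidence intervals (limma fit with no filter, n = 2 arrays per group) in 4 comparisons, with filled circles for genes with a mean of 3 or more and open diamonds for dim genes. The intervals of Kcnn3 exclude 0 in 3 panels, and those of all 4 KATP subunit genes include 0 in every panel.

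Of the Kir2 members Kcnj2 and Kcnj12, 1 was dim. Kcnj12, which encodes the inward rectifier Kir2.2, had values between 1.70 and 2.10 and a largest change of 0.19 ± 0.19 (SE, knockdown against control at 10 mM, limma with no filter, adjusted p = 0.853). Kcnj2 encodes Kir2.1, the inward rectifier whose onset in human myoblasts precedes fusion. It read 6.12 and 6.43 in knockdown cells at 10 mM glucose, 5.15 and 4.90 in knockdown cells at 1 mM, 5.05 and 6.05 in control cells at 10 mM and 5.12 and 4.96 in control cells at 1 mM. The 2 arrays of knockdown cells at 10 mM were the highest of all 8, and the replicates of control cells at 10 mM stood 1.00 apart, against a median replicate gap of 0.17 over genes with a mean of 3 or more.

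With glucose Kcnj2 rose 2.38-fold in knockdown cells (1.25 ± 0.31, SE, n = 2 per group, limma adjusted p = 0.0234). In control cells its change was 0.51 ± 0.31 (limma adjusted p = 0.274), and the difference between these responses, 0.74 ± 0.44, did not pass the test (limma adjusted p = 0.743). Averaged over knockdown and control cells it rose 1.84-fold (0.88 ± 0.22, limma adjusted p = 0.0160). Knockdown cells differed from control cells by 0.73 ± 0.31 at 10 mM (limma adjusted p = 0.364) and by -0.02 ± 0.31 at 1 mM (limma adjusted p = 0.988), a value that turned to 0.03 with each array centred on its median and with quantile normalization. In order of level, knockdown cells at 10 mM (6.28 ± 0.23, SD, n = 2) stood above the control at 10 mM (5.55 ± 0.71), which was followed by the control (5.04 ± 0.11) and the knockdown (5.03 ± 0.18) at 1 mM. No neighbours in that order passed the test by limma. The rise in knockdown cells lost its call without any 1 of the 4 knockdown arrays, at changes of 1.09 to 1.41 (limma adjusted p = 0.0582 to 0.121). The average rise lost it without replicate 2 of control cells at 1 mM or of knockdown cells at 10 mM (limma adjusted p = 0.0510 and 0.0550). In control cells the change was 1.01 and called without replicate 1 at 10 mM (limma adjusted p = 0.0265) and 0.00 without replicate 2. Without the same arrays the knockdown difference at 10 mM was 0.22 and 1.23 and the interaction 0.24 and 1.25, in that order, and none of these was called.

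Kcnn3 had the largest change of the 8 measured genes in 3 of the 4 comparisons, all but knockdown at 10 mM glucose. It encodes SK3, a small-conductance potassium channel opened by calcium through bound calmodulin, which carries the afterhyperpolarisation of immature muscle cells. It read 6.47 and 6.49 in knockdown cells at 10 mM glucose, 3.89 and 3.78 in knockdown cells at 1 mM, 6.97 and 6.74 in control cells at 10 mM and 5.85 and 6.36 in control cells at 1 mM. No groups overlapped, and knockdown cells at 1 mM lay at least 1.95 below every other array.

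Knockdown cells had 4.82-fold less Kcnn3 signal than control cells at 1 mM glucose (-2.27 ± 0.19, SE, n = 2 per group, limma adjusted p = 0.00329). At 10 mM the difference was -0.38 ± 0.19 (limma adjusted p = 0.449), with a 95% confidence interval of -0.82 to 0.07. Averaged over both glucose levels the signal was 2.50-fold lower in knockdown cells (-1.32 ± 0.13, limma adjusted p = 0.00337). Of the 5 members that passed the filter, Kcnn3 was the 1 called for knockdown at 1 mM and on average, both times as lower, where 1.25% and 2.71% of all genes were called lower. At 10 mM 0 of the 5 were called by limma, and 1, Kcnj2, had an unadjusted p under 0.05 (0.0489). An unadjusted p under 0.05 was reached there by 1807 of all 13308 genes tested. With glucose Kcnn3 rose 6.25-fold in knockdown cells (2.65 ± 0.19, limma adjusted p = 0.000211) and 1.69-fold in control cells (0.75 ± 0.19, limma adjusted p = 0.0252). With glucose 2 of the 5 were called higher in knockdown cells, 1 in control cells and 2 on average, where 14.5%, 13.2% and 21.3% of all genes were called higher. The difference between these responses was 1.89 ± 0.27 (95% confidence interval 1.26 to 2.52). Its unadjusted p was 0.000157, and 8 of all genes tested had a p this small or smaller, Kcnn3 included, but the limma adjusted p was 0.235, so the difference did not pass the test. The falls at 1 mM and on average and the rise in knockdown cells held in all 8 fits that left out 1 array. The rise in control cells lost its call without replicate 1 at 1 mM (0.50, limma adjusted p = 0.107) and without replicate 1 or 2 at 10 mM (0.64 and 0.87, limma adjusted p = 0.115 and 0.0579). Fitted on the 4 arrays of its own comparison alone, the fall at 1 mM had an adjusted p of 0.0546 and the rise in control cells one of 0.0657 by limma.

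In order of level, Kcnn3 was highest in the control at 10 mM (6.86 ± 0.16, SD, n = 2), next in the knockdown at 10 mM (6.48 ± 0.02), then in the control at 1 mM (6.10 ± 0.37) and lowest in the knockdown at 1 mM (3.84 ± 0.08). The first pair of neighbours did not pass the test by limma, the last pair did, and the middle pair was not compared. Knockdown cells at 1 mM lay above the dim bound.

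Markers of differentiated myotubes moved in the same comparisons. All 12 were called lower in knockdown cells on average and higher at 10 mM glucose on average by limma, where 2.71% of all genes were called lower and 21.3% higher. Their summed log2 level was 100.4 to 101.0 in knockdown cells at 10 mM, 87.5 to 88.4 in knockdown cells at 1 mM, 111.6 to 113.7 in control cells at 10 mM and 105.2 to 106.1 in control cells at 1 mM. At 1 mM their changes in knockdown cells ran from -2.23 to -0.66 with a median of -1.44, beside -2.27 for Kcnn3. At 10 mM they ran from -1.73 to -0.26 with a median of -0.95, beside -0.38. For the interaction they ran from -0.10 to 1.04, beside 1.89 for Kcnn3, and limma called 0 of the 12, with 4 at an unadjusted p under 0.05. Fibroblast markers summed to 53.2 to 53.9 in knockdown cells at 10 mM and 45.2 to 45.9 at 1 mM, and to 53.4 to 54.4 in control cells at 10 mM and 45.5 to 46.6 at 1 mM, with 2 of 7, Lum and Thy1, dim. Sums of smooth muscle and pericyte markers were 65.5 to 67.1 in knockdown and 61.1 to 61.6 in control cells at 10 mM, and 62.3 to 62.9 in knockdown and 59.1 to 59.7 in control cells at 1 mM, with Lmod1, Myh11 and Rgs5 dim. Sums of undifferentiated myoblast markers, with Pax3 dim among 10, lay between 61.7 and 63.4 in all groups. With knockdown limma called 1 fibroblast marker higher and 1 lower of 6 tested, 3 smooth muscle and pericyte markers higher of 10, and 0 of 10 myoblast markers, 3 of which had an unadjusted p under 0.05. Of all 13308 genes tested limma called 213 higher with knockdown, and 2617 had an unadjusted p under 0.05. With glucose it called 6 of 6 fibroblast markers and 3 of 10 smooth muscle and pericyte markers higher, and 4 myoblast markers higher and 3 lower of 10. Of all genes tested 2836 were called higher and 2367 lower with glucose. Of the beta cell and the neuron and glia markers 2 and 3 were tested and 1 each was higher with glucose, Mafa and Tubb3. In bulk RNA fewer cells of a type and less RNA per cell cannot be told apart, and the part of these markers in the values of Kcnn3 and Kcnj2 was not tested.

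**Figure D3:**
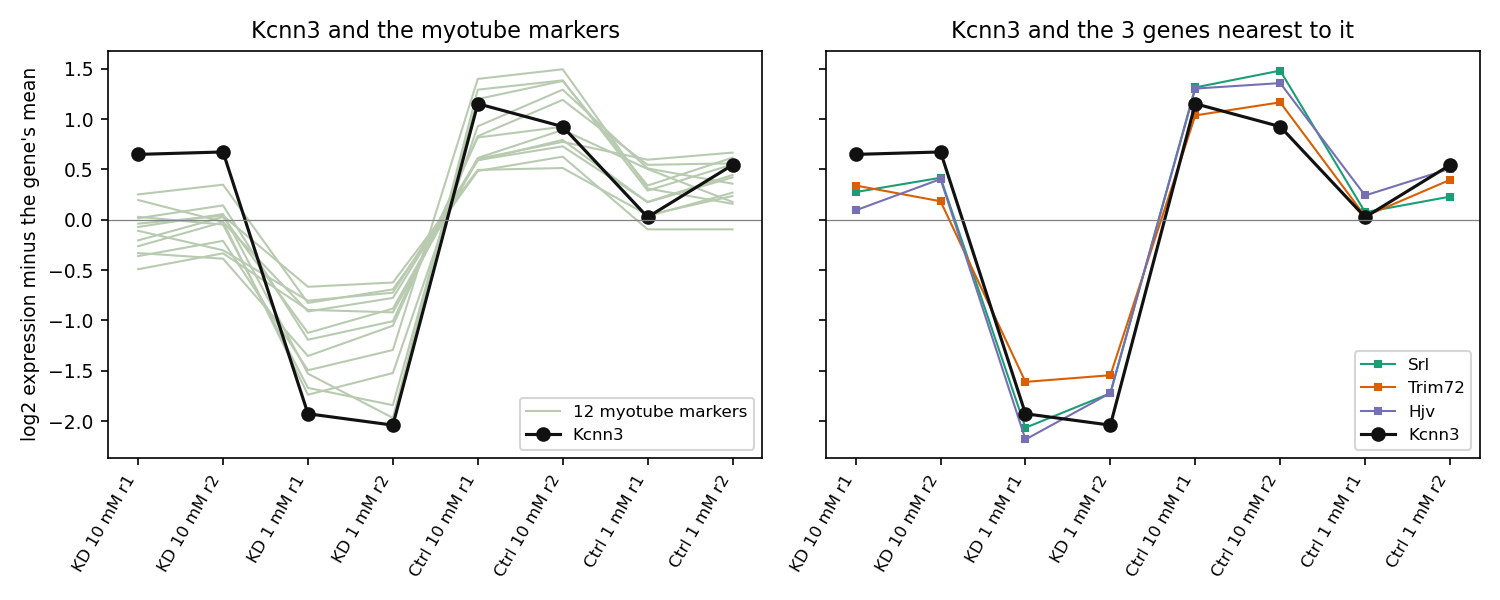
Log2 expression minus each gene's own mean on the 8 arrays (r1 and r2 are replicates of a group, KD is knockdown and Ctrl control), for Kcnn3 with the 12 myotube markers on the left and with the 3 genes nearest to it in profile on the right. Kcnn3 lies above all 12 markers on both arrays of knockdown cells at 10 mM and below them on both arrays of knockdown cells at 1 mM.

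Genes with the profile nearest to each of these were found by the root mean square difference over the 8 arrays after each gene was centred on its own mean. For Kcnn3, whose group means spanned 3.02, these were Srl (0.31, r = 0.97), Trim72 (0.31, r = 0.98) and Hjv (0.32, r = 0.97), where Srl encodes the sarcoplasmic reticulum protein sarcalumenin, Trim72 the membrane repair protein MG53 and Hjv the BMP co-receptor hemojuvelin. At 10 mM glucose these 3 differed between knockdown and control cells by -1.05, -0.84 and -1.08, beside -0.38 for Kcnn3. For Kcnj2, whose group means spanned 1.25, they were Hddc3 (0.19, r = 0.95), the Kv11.1 potassium channel gene Kcnh2 (0.20, r = 0.94) and Gm2016 (0.20, r = 0.96), the last of them dim. These are descriptions over 8 arrays that share 4 conditions.

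The promoters of the 2 genes with signal are shown because their levels differed between conditions. The 250 bases before the start site are given 5' to 3' from RefSeq (GRCm38.p6), with matches to the E-box motifs CAGCTG and CACGTG, searched on both strands, in capitals. The Kcnn3 window is chr3:89519914-89520163 and the Kcnj2 window chr11:111065914-111066163, both on the plus strand.
Kcnn3: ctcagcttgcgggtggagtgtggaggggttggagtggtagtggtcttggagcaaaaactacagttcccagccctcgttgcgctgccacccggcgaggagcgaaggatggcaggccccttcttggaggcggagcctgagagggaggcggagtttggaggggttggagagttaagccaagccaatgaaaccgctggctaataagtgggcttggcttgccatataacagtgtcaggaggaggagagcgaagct
Kcnj2: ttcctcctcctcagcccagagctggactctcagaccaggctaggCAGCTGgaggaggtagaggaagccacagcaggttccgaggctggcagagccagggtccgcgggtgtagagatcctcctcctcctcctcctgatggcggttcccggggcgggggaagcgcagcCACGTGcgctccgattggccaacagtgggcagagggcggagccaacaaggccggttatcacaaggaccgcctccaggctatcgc
The Kcnj2 window held 1 CAGCTG, beginning 206 bases upstream of the start, and 1 CACGTG, beginning 84 bases upstream, and the Kcnn3 window held neither. Of 32851 windows of 300 bases (250 before and 50 after a start) in the table, 16.3% held CAGCTG and 7.15% CACGTG. Among the 7 of 9 genes with a promoter in the table, the window of Abcc9 also held 1 CAGCTG. A match describes the letters and not a bound site.

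Clcn1 encodes ClC-1, the chloride channel that stabilises the resting potential of mature fibres. It was dim, with a mean of 2.72, the nearest to the bound among the dim genes. It read 2.53 and 2.08 in knockdown cells at 10 mM glucose, 2.96 and 2.60 in knockdown cells at 1 mM, 2.71 and 2.99 in control cells at 10 mM and 2.34 and 3.52 in control cells at 1 mM. The last pair of replicates spanned 1.18, and the value of 3.52 was the highest among the 6 dim members. No change of Clcn1 was called on all 8 arrays, the largest being -0.55 ± 0.37 for knockdown at 10 mM (SE, limma adjusted p = 0.585). Without replicate 1 of control cells at 1 mM the average glucose effect on Clcn1 was -0.57 and called (limma adjusted p = 0.0466), against -0.28 on all arrays (limma adjusted p = 0.446).

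Related genes were read from 10 lists of ion channels, pumps, membrane anchors and phosphotransfer enzymes. Of their 144 genes on the array 99 were dim, where 49.2% of all genes were, and 70 were tested. Setting the members aside, limma called 5 of 65 tested for the average knockdown effect (7.69%, against 4.31% of all genes) and 33 of 65 for the average glucose effect (50.8%, against 39.1%). For knockdown 1 was higher and 4 were lower, and for glucose 18 were higher and 15 lower. Of all 13308 genes tested, 213 were called higher and 360 lower for knockdown, and 2836 higher and 2367 lower for glucose. An unadjusted p under 0.05 for the average knockdown effect was reached by 2617 of all genes. The median log2 change of the 65 was 0.03 for knockdown and 0.01 for glucose, beside -0.01 and 0.01 over all genes.

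In the inward rectifier, voltage-gated and tandem-pore lists, members included, most potassium channel genes on the array were dim, where 49.2% of all genes were. In the inward rectifier list 12 of 14 genes on the array were dim, and of 4 tested Kcnj2 rose with glucose. Of the 4, limma called 0 with knockdown, where 4.31% of all genes were called, and 0 had an unadjusted p under 0.05. Of the voltage-gated potassium genes 43 of 47 were dim. Of the 16 tested, 5 rose with glucose and none fell, where limma called 39.1% of all genes, and 21.3% as higher. The median change of the 16 was -0.04. With knockdown limma called 0 of the 16, and 3 had an unadjusted p under 0.05. Kcnab3, a beta subunit, rose 2.35-fold (1.23 ± 0.20, limma adjusted p = 0.00248), Kcnc2 1.91-fold and Kcnh2 1.76-fold. Of these Kcnab3 was dim (mean 2.94), and Kcnc2 had a dim group mean at 1 mM. In the calcium-activated list 6 of 12 genes were dim. With knockdown limma called 1 of the 7 tested, Kcnn3, and 3 had an unadjusted p under 0.05. Kcnn3 and Kcnmb2, a BK channel beta subunit (2.43-fold), rose with glucose and Kcnn4 and Kcnt2 fell, Kcnn4 1.85-fold. Of 5 tandem-pore channel genes tested 1 fell with glucose, Kcnk5 (-0.44 ± 0.12, limma adjusted p = 0.0268).

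Sodium channel genes gave few readable values. Of 11 sodium channel genes on the array 10 were dim and 1 was tested, Scn7a, which encodes the sodium-sensing channel Nax. Scn7a read 7.85 and 8.01 in knockdown cells at 10 mM glucose, 4.74 and 4.53 in knockdown cells at 1 mM, 6.47 and 6.84 in control cells at 10 mM and 4.21 and 4.02 in control cells at 1 mM. It rose 7.55-fold with glucose on average (2.92 ± 0.12, limma adjusted p = 1.09e-05) and was 1.86-fold higher in knockdown cells (limma adjusted p = 0.00991). The CLC chloride channel list held Ostm1 beside the Clcn genes. Of its 8 genes tested 4 fell and 1 rose with glucose, where limma called 39.1% of all genes. With knockdown limma called 0 of the 8 (1 at an unadjusted p under 0.05), where 4.31% of all genes were called. Clcn7, the lysosomal exchanger, fell 1.87-fold, Clcn3 and Clcn6, which act in endosomes, fell 1.63-fold and 1.32-fold, and the plasma membrane channel gene Clcn2 rose 1.67-fold.

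Pump and anchoring genes moved both ways, where limma called 39.1% of all genes with glucose and 4.31% with knockdown. Of 7 sodium pump genes tested 3 rose and 1 fell with glucose, among them the beta subunit Atp1b1 (1.08 ± 0.10, limma adjusted p = 0.000190) and the muscle regulator Fxyd1, phospholemman (2.08-fold, with a dim group mean). With knockdown 1 fell, the pump regulator Fxyd6. Fxyd6 read 3.69 and 3.29 in knockdown cells against 5.03 and 5.05 in control cells at 10 mM glucose, and 3.33 and 2.67 in knockdown cells against 5.30 and 5.72 in control cells at 1 mM. Its average fall was 4.09-fold (-2.03 ± 0.18, limma adjusted p = 0.00194), with the group mean of knockdown cells at 1 mM at the dim bound. Among 9 anchoring genes tested 4 rose and 3 fell with glucose. Ankyrins went opposite ways, Ank3 up 2.13-fold and Ank2 (ankyrin-B, known to bind Kir6.2) down 4.03-fold, and the syntrophin gene Sntb1 was higher at 10 mM glucose (1.07 ± 0.11) and lower with knockdown (-0.62 ± 0.11, limma adjusted p = 0.0258).

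Other groups bear on KATP channels as sequence relatives and as enzymes that set ATP and ADP near the membrane. Of 8 ABCC genes tested 3 fell with glucose, where limma called 39.1% of all genes. With knockdown limma called 0 of the 8 (2 at an unadjusted p under 0.05), where 4.31% of all genes were called. Those that fell were Abcc4, Abcc5 and Abcc1, all exporters and not channel subunits, and Abcc4 fell 6.39-fold (-2.68 ± 0.18, limma adjusted p = 5.12e-05). Of 5 phosphotransfer genes tested 3 rose and 1 fell with glucose and 2 fell with knockdown. The muscle creatine kinase gene Ckm, also on the myotube list, rose 2.24-fold with glucose and fell 3.21-fold with knockdown. The brain-type creatine kinase gene Ckb and the cytosolic adenylate kinase gene Ak1 rose 2.59-fold and 2.01-fold with glucose, Ak5 fell 2.39-fold, and the mitochondrial Ak4 fell 1.75-fold with knockdown.

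**Figure D4:**
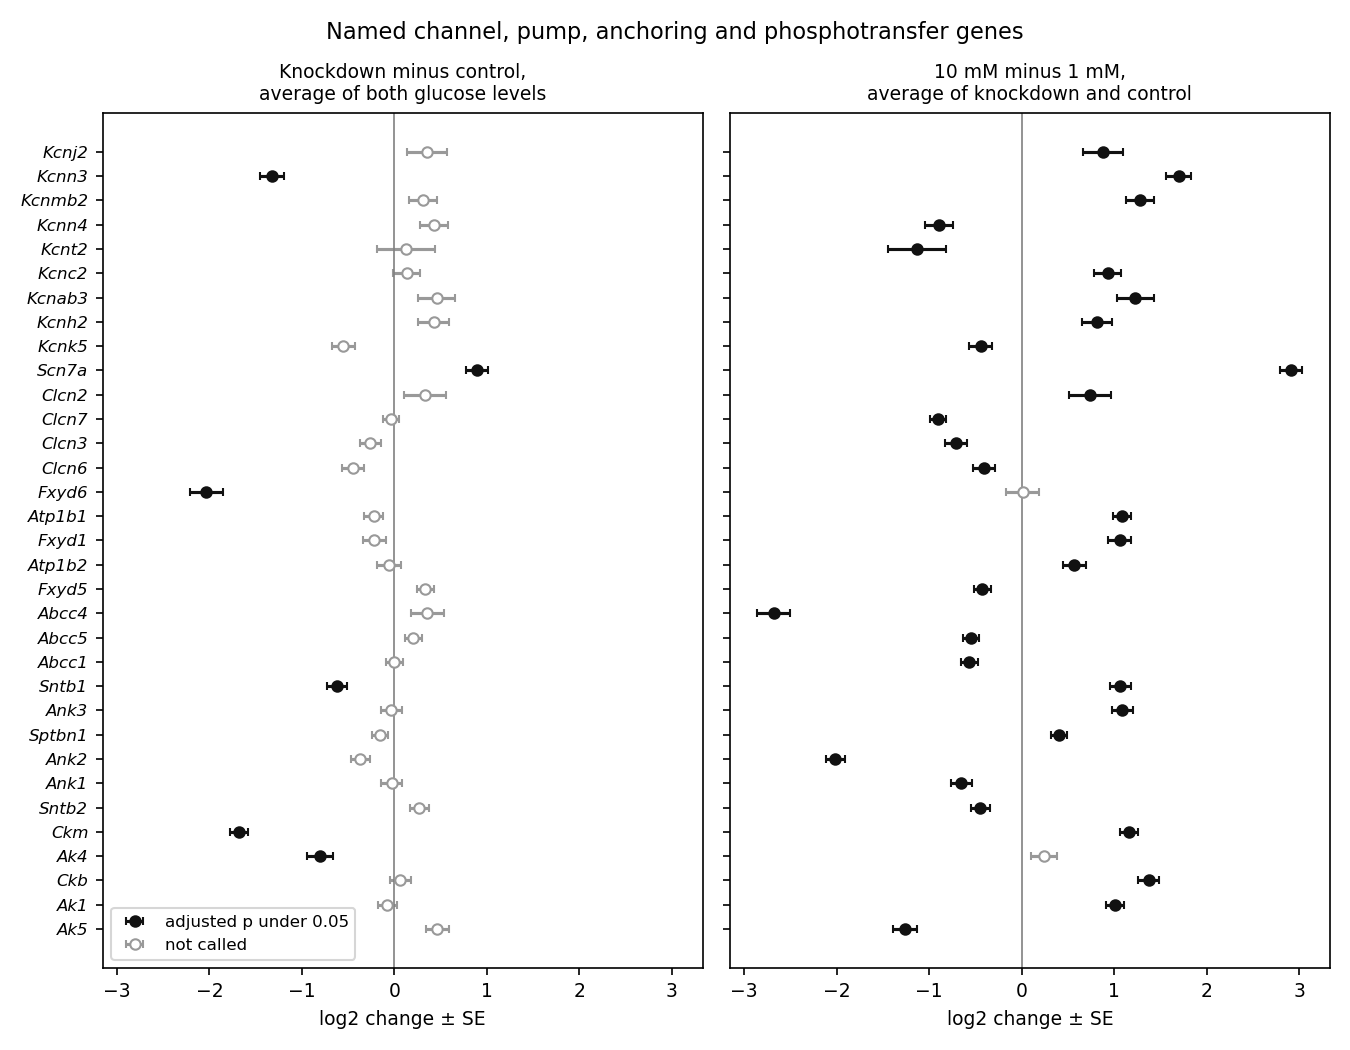
Log2 changes ± SE (limma, 8 arrays) of the named channel, pump, anchoring and phosphotransfer genes for knockdown minus control averaged over both glucose levels (left) and for 10 mM minus 1 mM glucose averaged over knockdown and control cells (right), with filled points at an adjusted p under 0.05. On the left 6 genes are filled, Kcnn3, Scn7a, Fxyd6, Sntb1, Ckm and Ak4, and on the right all but Fxyd6 and Ak4.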

How the data were processed

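RNA of 8 samples was measured on 1 array each. The deposited table holds log2 expression values for 41345 probe sets, which the authors made with RMA (affy package), per the submitters' processing notes; versions and genome build are not given in the sources used here. RMA forces all arrays towards 1 distribution, and dim signals can come out with compressed differences, which was not tested here, and the number of arrays limits the precision. No further normalization was applied.

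Platform annotation gave 23521 probe sets 1 gene, 1814 several and 16010 none. A gene was read by its single-gene probe set with the highest mean over 8 arrays, and genes under the 40th percentile (2.30) were left out of the tests. limma 3.58.1 in R 4.3.3 (lmFit, eBayes, 1 mean per group, all tests two-sided) gave changes, standard errors and Benjamini-Hochberg adjusted p-values over 13308 genes, with 4 residual and 3.36 prior degrees of freedom. The script was tested on simulated data. The p-values set a difference between groups against the spread of replicates, which eBayes moderates over all genes tested. They speak for these samples only. Members, lists and contrasts were chosen with earlier results of these data known. From each of the 16 lists up to 3 called genes per direction with the smallest p in the average effects were eligible to be named. Replicate numbers were not taken as pairs, since the deviations of same-numbered arrays correlated at -0.04 to 0.11. Alternatives changed the scaling, filter, variance model, arrays, block and probe set rule.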

Additional observations from a re-analysis of the deposited data

How the results depend on the processing

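Kcnj2 and Kcnn3 were refitted in 7 contrasts under every alternative, and 216 of 232 values kept their direction and side of the threshold. Many of these directions could not turn. Changes to the filter, the variance model, the block or arrays outside a comparison leave the log2 change as it was. Both genes had 1 probe set, so the probe set rule could not move them either. The direction turned in 4, all for Kcnj2 with knockdown at 1 mM glucose (-0.02): 0.034 with each array centred on its median, 0.0316 with quantile normalization, and 0.06 and 0.11 without replicate 1 of control or replicate 2 of knockdown cells at 1 mM, within a range of -0.15 to 0.11 over the arrays left out. Counts of called members stayed at 1, 0, 1 and 0 for knockdown at 1 mM, knockdown at 10 mM, the average knockdown effect and the interaction with any 1 array left out. They ranged from 0 to 1 for glucose in control cells (1 on all arrays), from 1 to 2 in knockdown cells (2 on all arrays) and from 1 to 3 for the average glucose effect (2 on all arrays). On the 4 arrays of the comparison alone the count was 0 for knockdown at 1 mM and 0 for glucose in control cells, against 1 each, from fewer arrays. With the replicate block the counts of called members stayed at 1, 0, 1, 1, 2, 2 and 0, with knockdown at 1 mM, at 10 mM and on average first, then glucose in control cells, in knockdown cells and on average, and the interaction.

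Over all genes, calls for knockdown at 1 mM numbered 198, against 581 with an intensity trend in eBayes, 18 on 4 arrays and 30 to 129 without 1 array. At 10 mM they numbered 149, against 460, 6 and 0 to 76, with 69 with no filter and 73 with the replicate block. The average knockdown effect called 573, against 1108 with the trend and 210 to 386. Glucose called 3372 in control cells, against 2046 to 3251 without 1 array, and 3342 in knockdown cells, against 1903 to 3185. The interaction called 0, against 1 with the trend, not a member. Centring moved the share of higher calls for glucose in knockdown cells to 46.9%, against 57.9%. Low signal limits every value of the 6 dim genes.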
